A study of Rattus norvegicus with 6 samples.

Results

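The genes described here encode the proteins that carry out the last step of insulin release, the fusion of a secretory granule with the plasma membrane. They are the syntaxin genes Stx1a, Stx3 and Stx4, the SNAP-25 family genes Snap25 and Snap23, the VAMP genes Vamp2, Vamp3 and Vamp8, and Stxbp3, the gene of Munc18c. The 9 genes were taken by name from the sheet of transcript abundances, which lists 28656 gene names. Of these genes 8 were found, with 11 annotated transcripts, and all 8 passed the filter on low values that left 13927 names for testing. Snap23 was not analysed here.

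Dissociated pancreatic islet cells of male Wistar rats aged 12 weeks received the ci-Ins2 gapmeR (n = 3 libraries) or the control gapmeR (n = 3 libraries) by transfection, and their RNA was taken after 48 h. ci-Ins2 is a circular RNA that holds the lariat of the second intron of Ins2, and gapmeRs are modified oligonucleotides with a DNA centre that leave their RNA target open to RNase H. All libraries came from the same kind of primary cell preparation, with no genetic change in either group. The comparison asks which mRNAs differ in abundance when the circular RNA is targeted. The abundance of ci-Ins2 itself was not analysed here, so these values do not check the labels of the libraries.

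SNARE proteins of the granule and of the plasma membrane zip together into a bundle of helices that pulls both membranes into contact. A VAMP protein sits on the granule, whereas a syntaxin and a SNAP-25 family protein sit on the plasma membrane. Sec1/Munc18 proteins such as Munc18c clasp the syntaxin and guide the assembly. In β-cells, syntaxin 1A, SNAP-25 and VAMP2 are known as the proteins of calcium-triggered insulin release, while syntaxin 4 with Munc18c and VAMP8 have been linked to sustained release and to granules that arrive newly at the membrane.

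The oligonucleotides that define both groups are shown because every comparison rests on them. Capitals mark the 6 bases of the ci-Ins2 gapmeR that pair with the first 6 bases of the rat lariat, which are in capitals in the last line. Whether the other 10 bases pair with the end of the lariat was not checked. The control gapmeR does not pair with that start.
ci-Ins2 gapmeR: GCTTACagacacatag
control gapmeR: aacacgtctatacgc
start of the rat ci-Ins2 lariat: GTAAGCtctgctcctgaattctat

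Abundances are given on the TPM scale, RSEM's length-adjusted unit, after division of the deposited values by 10, and each value is the sum over the transcripts of a gene. Every library sums to the same total, with 26127 to 26730 transcripts detected above 0. The values are not counts, the number of reads behind them is unknown, and no interval for counting error can be given. β-cell markers were the main signal in all libraries, with a summed level of 180438 to 184804 in ci-Ins2 gapmeR libraries and 184128 to 186224 in control libraries over 8 genes. The 4 tested ductal markers had a median log2 fold change of 0.33, and 3 of them, Krt19, Krt18 and Krt7, were higher after the knockdown. When 1 library was left out, Krt19 passed in 4 of 6 fits, Krt18 in 1 and Krt7 in 0, with adjusted p of up to 0.056, 0.12 and 0.16 from limma, each without control replicate 3, and Krt7 did not pass without scaling (0.061). The summed level of all 6 ductal genes was 665 to 748 in ci-Ins2 gapmeR libraries and 510 to 580 in control libraries, although the defining ductal genes Sox9 and Cftr were near 0. The 7 tested macrophage and immune markers had a median of −0.51, with none past the threshold without a block and 4 lower with the replicate number as a block (C1qa, C1qb, C1qc and Lyz2), and a summed level of 21.0 to 46.0 in ci-Ins2 gapmeR libraries and 38.2 to 62.8 in control libraries over 8 genes. The 5 fibroblast and stellate markers had a median of −0.43, with none past the threshold without a block and 3 lower with it (Col1a1, Col1a2 and Col3a1). In such bulk samples, fewer cells of a type and less RNA per cell cannot be told apart, and the part of these shifts in the values below was not tested.

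None of the 8 genes passed the test after ci-Ins2 knockdown, and their fold changes were small in both directions. The log2 fold changes ran from −0.11 for Stx3 to 0.11 for Stx4, with 4 genes below 0 and 4 above it and a median of −0.01, beside a median of 0.00 over all genes tested. limma with Benjamini-Hochberg adjustment over all genes called 0 of the 8, and the smallest adjusted p was 0.25, for Stx4. Among all genes 488 (3.5%) were lower and 141 (1.01%) were higher, 4.52% together, so a count of 0 among 8 genes is close to that background. Without scaling between libraries the split over all genes was 360 lower and 177 higher. At an unadjusted p under 0.05 there were again 0 of the 8, against 20.5% of all genes. With the replicate number as a block, limma called 0 of the 8 as well, against 15.5% of all genes (10.3% lower and 5.23% higher), and 1 gene, Stx4, had an unadjusted p under 0.05, against 33.9%. The smallest adjusted p in any of the 15 fits was 0.14. A missed threshold does not show equal expression, but each interval, taken alone, bounds the change of its gene under that fit. In the fit with scaling and no block, the 95% intervals of the 8 genes lay between −0.27 and 0.23 on the log2 scale. That is between −17.2% and 17.4% on the log2(value + 1) scale. This fit leaves out that, by the reporting summary, cells of a biological replicate shared a passage or an animal between groups. With the replicate number as a block, which takes this pairing into account, the 95% intervals of the 8 genes lay between −0.23 and 0.21. These bounds depend on the scaling, and without it the log2 fold change of Stx4 was 0.15 (standard error 0.056).

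**Figure D1:**
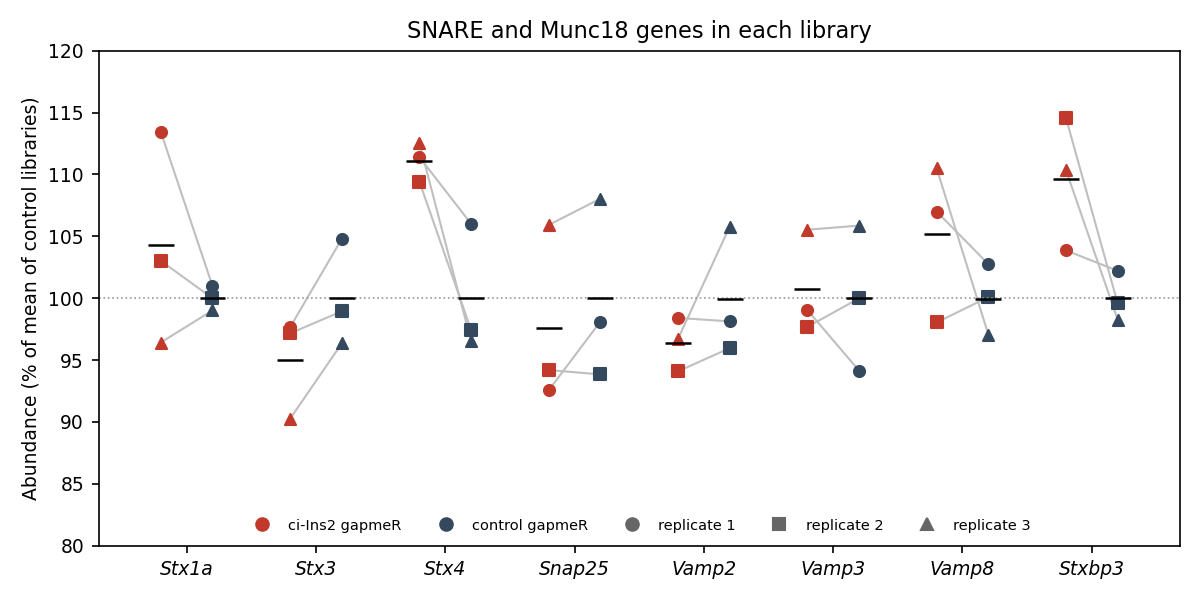
Abundance of each gene in each library as a percentage of its mean over the control libraries, unscaled, with ci-Ins2 gapmeR libraries left of control libraries. Marker shapes give the replicate number, grey lines join libraries of the same number and black bars are group means. All values lie between 90.3% and 114.6%, and the groups are apart for Stx4 and Stxbp3 alone.

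No syntaxin gene passed the test, and Stx4 was the one whose ci-Ins2 gapmeR libraries all lay above the control libraries. Stx4 encodes the widely expressed plasma membrane syntaxin that also serves glucose transporter delivery in fat and muscle. Its abundance was 65.6, 64.4 and 66.2 in ci-Ins2 gapmeR libraries 1 to 3, against 62.4, 57.3 and 56.8 in control libraries 1 to 3. The groups did not overlap, with means of 65.4 ± 0.927 in ci-Ins2 gapmeR cells and 58.8 ± 3.08 in control cells (SD, n = 3 each). The log2 fold change was 0.11 (standard error 0.045, 95% interval −0.0010 to 0.22, adjusted p = 0.25 from limma), so the difference did not pass. With the replicate block the 95% interval was 0.0014 to 0.21, just above 0. The adjusted p was then 0.14 from limma, so the difference did not pass there either. The 3 pairs of libraries with the same number differed by 0.04, 0.10 and 0.18 on the scaled log2 scale, all above 0. Among all genes tested, 27.9% had all 3 pairs above 0 and 27.8% had all 3 below it. Groups without overlap were common too. After scaling they were seen for 26.8% of all genes (13.8% lower and 13.0% higher), beside 3 of the 8, which were Stx4 (higher), Stx3 and Vamp2 (both lower). Before scaling they were seen for 27.7% (9.23% lower and 18.5% higher), beside 2 of the 8, Stx4 and Stxbp3, both higher.

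Stx3 encodes a syntaxin known from the apical membrane of epithelia and from granule membranes. It had 12.0, 12.0 and 11.1 in ci-Ins2 gapmeR libraries 1 to 3, against 12.9, 12.2 and 11.9 in control libraries 1 to 3. The ranges overlapped before scaling and were separate after it. The log2 fold change was −0.11 (95% interval −0.25 to 0.03, adjusted p = 0.34 from limma), with all 3 pairs below 0. Stx1a, the syntaxin of neurons and endocrine cells that forms the classical release complex, had 9.98, 9.06 and 8.48 in ci-Ins2 gapmeR libraries 1 to 3, against 8.88, 8.80 and 8.71 in control libraries 1 to 3. The ci-Ins2 gapmeR libraries spanned the control range on both sides, and the log2 fold change of 0.01 (95% interval −0.15 to 0.17) turned to −0.03 without ci-Ins2 replicate 1 and to −0.00059 without control replicate 1.

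Snap25, whose protein supplies a pair of helices to the bundle, was the most abundant of the 8 genes and varied more between replicates than between treatments. It had 309.5, 315.0 and 354.2 in ci-Ins2 gapmeR libraries 1 to 3, against 328.1, 313.8 and 361.3 in control libraries 1 to 3. Replicate 3 was the highest in both groups. After scaling, the mean levels of the replicate pairs spanned 0.21 on the log2 scale, while the differences within the pairs were −0.11, −0.06 and −0.07. The log2 fold change was −0.08 with a 95% interval of −0.27 to 0.11 without a block and of −0.16 to 0.0012 with it (adjusted p = 0.63 and 0.15 from limma). The value moved to −0.15 without ci-Ins2 replicate 3, to −0.03 without ci-Ins2 replicate 1 and to −0.02 without control replicate 3, and it was −0.02 with the most abundant transcript alone.

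None of the 3 VAMP genes passed the test. Vamp2 encodes synaptobrevin 2, the VAMP of calcium-triggered release, and had 17.3, 16.6 and 17.0 in ci-Ins2 gapmeR libraries 1 to 3, against 17.3, 16.9 and 18.6 in control libraries 1 to 3. The log2 fold change of Vamp2 was −0.09 (95% interval −0.23 to 0.05, adjusted p = 0.45 from limma), and the groups were apart only after scaling. It was −0.05 without control replicate 3 and −0.05 without scaling. Vamp3, the gene of cellubrevin, a close relative of VAMP2 found in most cells, had 6.87, 6.78 and 7.32 in ci-Ins2 gapmeR libraries 1 to 3, against 6.53, 6.94 and 7.34 in control libraries 1 to 3. The ci-Ins2 gapmeR libraries lay within the control range, and the log2 fold change was −0.03 (95% interval −0.21 to 0.15), or 0.01 without scaling and 0.01 without control replicate 3. Vamp8 encodes endobrevin, a VAMP of endosomes and of regulated secretion in exocrine cells. It had 229, 210 and 237 in ci-Ins2 gapmeR libraries 1 to 3, against 220, 214 and 208 in control libraries 1 to 3. The lowest ci-Ins2 gapmeR library lay within the control range and the highest above it, and the log2 fold change was 0.03 (95% interval −0.11 to 0.16), or −0.02 without ci-Ins2 replicate 3.

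Stxbp3, whose protein Munc18c binds syntaxin 4, was the other gene with separate groups before scaling. It had 15.0, 16.6 and 16.0 in ci-Ins2 gapmeR libraries 1 to 3, against 14.8, 14.4 and 14.2 in control libraries 1 to 3. After scaling ci-Ins2 gapmeR replicate 1 fell within the control range, and the pair of replicate 1 differed by −0.0028 while the other pairs differed by 0.13 and 0.12. The log2 fold change was 0.08 (95% interval −0.07 to 0.23, adjusted p = 0.53 from limma), and it was 0.12 with no scaling, 0.13 without ci-Ins2 replicate 1 and 0.04 without ci-Ins2 replicate 2.

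The levels of the 8 genes spanned a wide range that the knockdown left in the same order. In control cells Snap25 averaged 334 ± 24.3, followed by Vamp8 with 214 ± 6.07, Stx4 with 58.8 ± 3.08, Vamp2 with 17.6 ± 0.912, Stxbp3 with 14.5 ± 0.289, Stx3 with 12.3 ± 0.531, Stx1a with 8.80 ± 0.0870 and Vamp3 with 6.94 ± 0.407 (SD, n = 3). Over all 6 libraries, neighbours in this order had separate ranges with 1 exception, Vamp2 and Stxbp3, where the lowest Vamp2 value was 16.56 and the highest Stxbp3 value was 16.59. Snap25 stood 48.2-fold above Vamp3 and ranked 485 among the 13927 tested genes, whereas Stx1a ranked 8382. These levels are per length of the annotated transcripts, and they depend on how complete those annotations are.

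**Figure D2:**
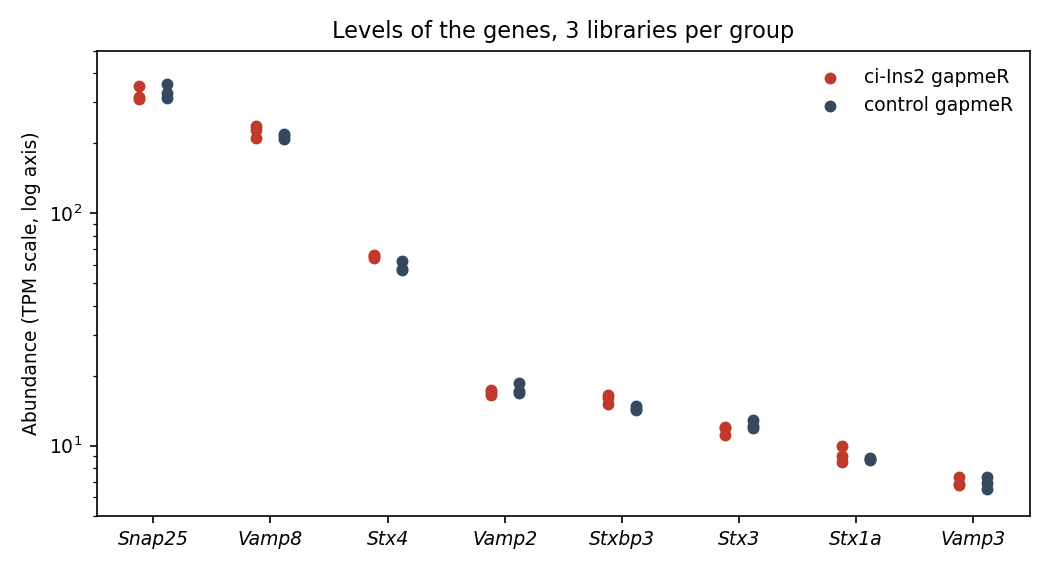
Abundance of each gene in each library on the TPM scale (log axis), ordered by the control mean, with ci-Ins2 gapmeR libraries left of control libraries. Snap25 and Vamp8 lie above 200, and Vamp3 is lowest at 6.53 to 7.34.

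Within a library, the ratio of Vamp2 to Vamp8 was 0.0755 ± 0.0035 in ci-Ins2 gapmeR cells and 0.0823 ± 0.0063 in control cells (SD, n = 3 each), with overlap between the groups. The ratio of Vamp2 to Vamp3 was 2.43 ± 0.099 in ci-Ins2 gapmeR cells and 2.54 ± 0.11 in control cells, and that of Stx1a to Stx4 was 0.140 ± 0.012 and 0.150 ± 0.0063, both with overlap. The ratio of Stx1a to Stx3 was 0.830, 0.758 and 0.763 in ci-Ins2 gapmeR libraries 1 to 3, against 0.689, 0.722 and 0.734 in control libraries 1 to 3. This ratio was thus higher in each ci-Ins2 gapmeR library than in any control library. Of all single genes 27.7% had separate groups before scaling, and the share over ratios was not computed. These ratios were picked with earlier results known, so the values are descriptions and were not tested.

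Snap25 has 3 annotated transcripts and Stx4 has 2, and RSEM divides the reads they share by estimation. The Snap25 transcript ENSRNOT00000008734 took 37.7 ± 1.81% of the gene in ci-Ins2 gapmeR libraries and 36.1 ± 0.995% in control libraries (SD, n = 3 each), with overlap. The transcripts ENSRNOT00000007998 and ENSRNOT00000080581 of Snap25 had log2 fold changes of −0.10 and −0.12, beside −0.01 for ENSRNOT00000008734. Both Stx4 transcripts were higher in each ci-Ins2 gapmeR library than in any control library, with log2 fold changes of 0.12 for ENSRNOT00000026224 and 0.10 for ENSRNOT00000082121. Their shares of Stx4 stayed within 54.4% to 55.1% and 44.9% to 45.6% in all 6 libraries. Separate groups were seen for 27.7% of all genes before scaling, and the share over all transcripts was not computed. None of the 11 transcripts of the 8 genes passed (adjusted p of 0.22 for ENSRNOT00000026224 from limma over 19074 transcripts), against 5.3% of all transcripts (4.23% lower and 1.07% higher). With the block none passed either, against 16.8% (10.8% lower and 5.99% higher).

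**Figure D3:**
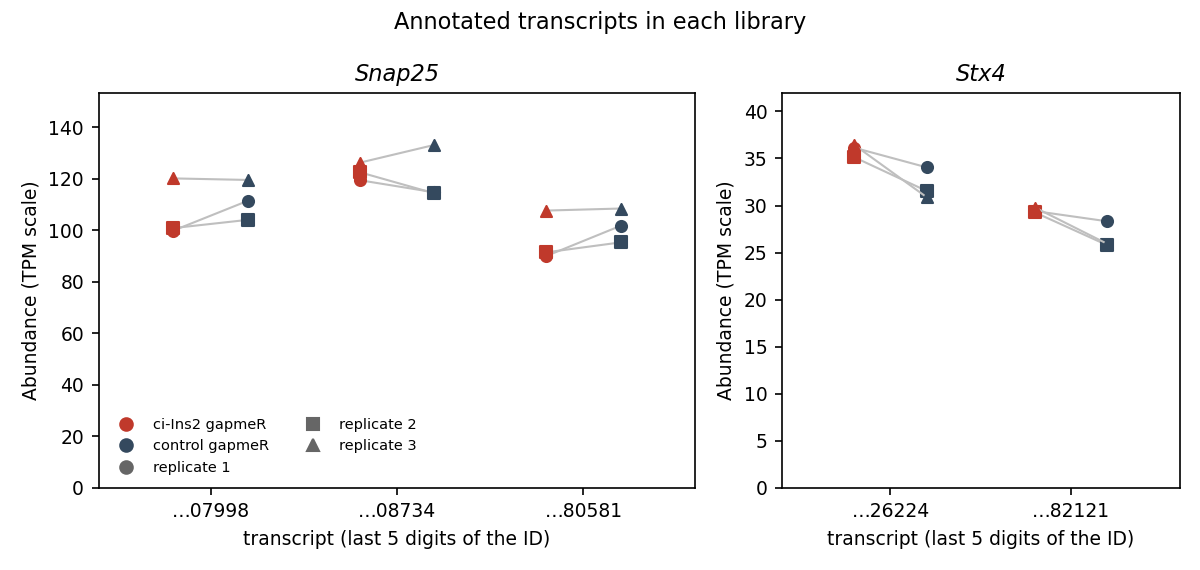
Abundance of the annotated Snap25 and Stx4 transcripts in each library on the TPM scale, with ci-Ins2 gapmeR libraries left of control libraries, marker shapes for the replicate number and lines that join the same number. Both Stx4 transcripts are apart between the groups, and the Snap25 transcripts overlap.

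The genes around the fusion complex were read from the same fit, in groups by role. The 27 tested genes of other SNARE proteins serve fusion between inner membranes for the most part, and their median log2 fold change was −0.02. Of these 27 genes 1 was lower and none was higher, close to the 3.5% lower and 1.01% higher among all genes. This gene was Vti1a, a SNARE of the Golgi and endosomes, with 9.97, 10.0 and 9.02 in ci-Ins2 gapmeR libraries 1 to 3, against 13.8, 14.8 and 15.4 in control libraries 1 to 3. The log2 fold change of Vti1a was −0.59 (standard error 0.077, adjusted p = 0.0096 from limma), and the adjusted p was 0.053 without control replicate 3. Of its transcripts, ENSRNOT00000066236 was lower (log2 fold change −0.76, limma adjusted p = 0.011), and ENSRNOT00000067460 did not pass (−0.17, adjusted p = 0.31). Sec22c, of the Sec22 family of early secretory SNAREs, fell short of the threshold at −0.67 (adjusted p = 0.051 from limma) and passed with the block (adjusted p = 0.023). With the block, Sec22b, a SNARE of the endoplasmic reticulum and Golgi, was lower as well (−0.16, adjusted p = 0.0496), and the count was then 3 lower of 27, close to the 10.3% lower among all genes with the block. The most abundant genes of this group, Sec22b, Stx7 and Vamp4, averaged 136 ± 12.3, 94.3 ± 4.71 and 84.2 ± 3.26 in ci-Ins2 gapmeR cells and 147 ± 7.80, 83.1 ± 6.04 and 81.9 ± 3.98 in control cells.

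Of the 7 other Sec1/Munc18 genes, Scfd2, which encodes a protein with a Sec1 domain, was lower and none was higher, with a median log2 fold change of 0.10 over the group. Among all genes 3.5% were lower and 1.01% higher. With the block 2 of the 7 were lower and 1 was higher, against 10.3% lower and 5.23% higher among all genes. The difference of this small group from these shares was not tested. Scfd2 had 6.76, 6.82 and 7.55 in ci-Ins2 gapmeR libraries 1 to 3, against 9.60, 8.80 and 9.47 in control libraries 1 to 3. Its log2 fold change was −0.40 (standard error 0.069, adjusted p = 0.028 from limma), but it passed in only 1 of the 6 fits without a library, that without ci-Ins2 replicate 3, and its adjusted p reached 0.12 without control replicate 3. Vps33a, a Sec1/Munc18 subunit of the tethering complex of lysosomes, differed by 0.21 on the log2 scale (adjusted p = 0.13 from limma) and passed with the block (adjusted p = 0.027). Scfd1, which acts between the endoplasmic reticulum and the Golgi, averaged 99.5 ± 4.01 in ci-Ins2 gapmeR cells and 89.4 ± 2.99 in control cells (log2 fold change 0.11, adjusted p = 0.22 from limma).

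Among 17 tested factors of SNARE assembly and disassembly, 2 were lower and none was higher, with a median log2 fold change of −0.05. The shares among all genes were 3.5% lower and 1.01% higher. With the block 3 of the 17 were lower, against 10.3% of all genes. The difference of this small group from these shares was not tested. Both genes that were lower without the block act before fusion. Unc13a encodes Munc13-1, which opens syntaxin for assembly, and had 10.3, 9.16 and 9.40 in ci-Ins2 gapmeR libraries 1 to 3, against 17.0, 14.9 and 15.8 in control libraries 1 to 3 (log2 fold change −0.71, 95% interval −0.86 to −0.56). Cadps, the gene of a priming factor of dense-core granules, had a log2 fold change of −0.67 (95% interval −0.83 to −0.51), and both genes passed in all 6 fits without a library. Pclo, which encodes the release-site scaffold piccolo, differed by −0.37 on the log2 scale (adjusted p = 0.051 from limma) and passed with the block (adjusted p = 0.0069). Unc13a and Pclo were among the genes that the study selected from these libraries, so their direction here is not independent evidence. The genes that take spent complexes apart, Nsf, Napa, Napb and Napg, had log2 fold changes of −0.04, 0.06, −0.10 and −0.05, none past the threshold. Of the complexins, which clamp the assembled bundle, Cplx1 had 0.28 and Cplx2 0.15, also without passing (adjusted p = 0.37 and 0.57 from limma). Of these, Nsf, Napb, Napg and Cplx1 were named for their roles after their values were seen.

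**Figure D4:**
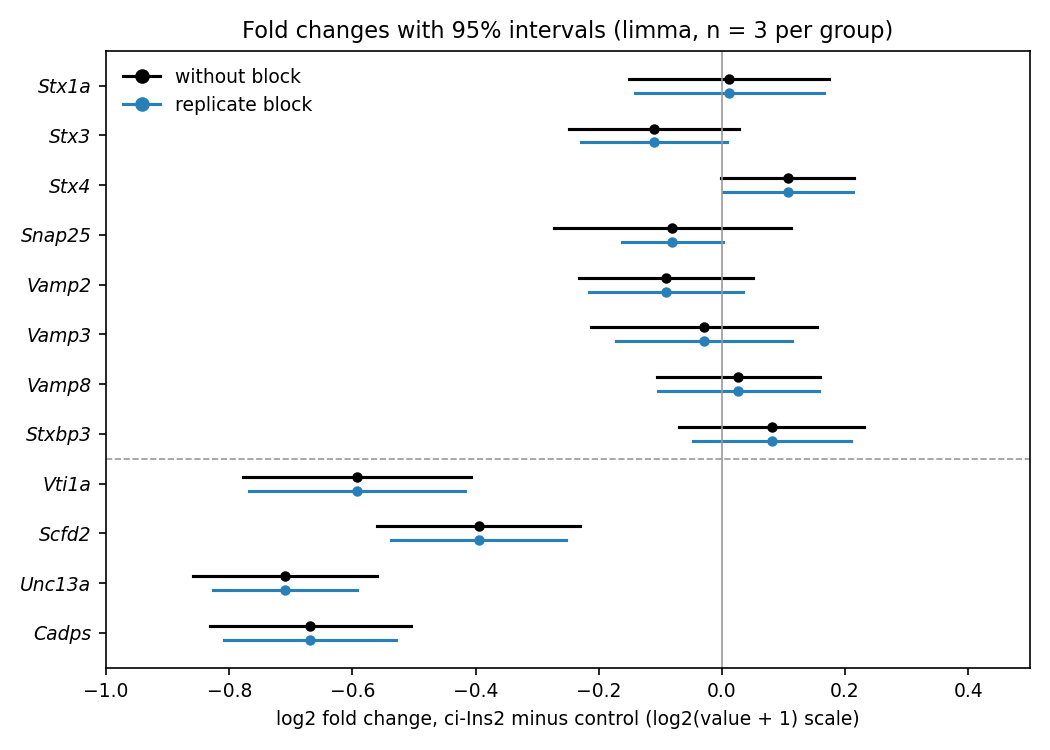
log2 fold changes (ci-Ins2 minus control, log2(value + 1) scale) of the 8 genes, above the dashed line, and of 4 partner genes, below it, with 95% intervals from limma without a block (black) and with the replicate block (blue). The black intervals of the 8 genes all include 0 and lie between −0.27 and 0.23. Those of Vti1a, Scfd2, Unc13a and Cadps end at or below −0.23. These 4 were drawn because they passed the threshold without a block, so their black intervals had to leave out 0. The blue interval of Stx4 lies just above 0 (0.0014 to 0.21), and the other blue intervals of the 8 genes include 0.

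**Figure D5:**
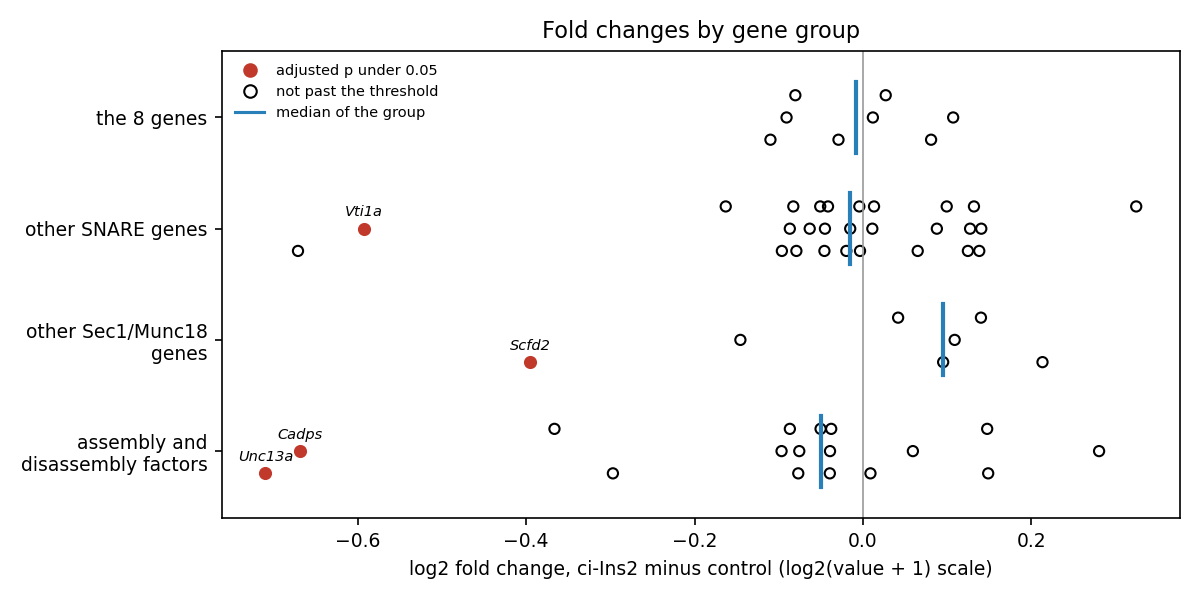
log2 fold changes (ci-Ins2 minus control, log2(value + 1) scale) of the tested genes in each group, 1 circle per gene, with filled red circles for an adjusted p under 0.05 from limma and a blue line at the median of the group. The filled circles are Vti1a, Scfd2, Unc13a and Cadps, and none lies among the 8 genes.

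The deposited annotation of circRNAs in mouse islets, made from libraries of another study, gives a further view of these genes. Matched by symbol, 1 circRNA each of Stxbp3 and Stx1a was found, and the share of all genes that host one was not computed. circ_09392 of Stxbp3 is of the exon class, lies on the minus strand of mouse chromosome 3 from 108794801 to 108797466, and has an authors' mean of 6.02 normalized junction reads, rank 4633 of 15925. circ_11086 of Stx1a is of the exon class, lies on the plus strand of mouse chromosome 5 from 135041930 to 135049104, and has an authors' mean of 1.43, below the median of 2.99 over all circRNAs. The sources used here do not give the genome build of these coordinates, and the means come with no replicate values.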

How the data were processed

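For the 6 libraries, the authors aligned reads with STAR 2.5.3a against rn6 and estimated abundances per transcript in RSEM 1.3.0 (submitters' processing notes and study methods). The deposited values behave as a signal of TPM times 10, and their unit is not named in the file. The mouse circRNA mean is likewise a deposited signal of normalized junction reads, and 6 columns of single samples of that other study were not used. Deposited tables of the authors' own fold changes, p-values and pathway enrichment were not used.

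Values were divided by 10 and summed per gene name. Names with at least 1 in 3 or more libraries were kept, divided by median-of-ratios size factors (0.962 to 1.035), and fitted on log2(value + 1) with limma 3.58.1 in R 4.3.3, with a mean-variance trend, no block and Benjamini-Hochberg adjustment over all genes. An adjusted p under 0.05 was called. Abundances printed are unscaled, and fold changes are scaled and understate the changes of low genes. No exact permutation p is given, since 0.1 is the smallest that 3 against 3 allows.

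According to the reporting summary, cells of each biological replicate shared a passage or an animal between groups. Deviations from the group means correlated at 0.462, 0.493 and 0.419 between libraries of the same number and at −0.266 to −0.157 otherwise, and a fit with the replicate number as a block was run as an alternative. The genes and lists were chosen with earlier results of these data known. Named partner genes are those past the threshold in either fit and the 3 most abundant of each group, with the exceptions stated beside them and 1 gene that is not reported here. Alternatives are given in the closing section. On simulated data over 13927 genes of this comparison, the fit recovered 77 of 100 genes changed by 1 and 50 of 100 changed by 0.5 on the log2 scale. Python 3.11.15 with pandas 2.3.3 made the tables, and matplotlib 3.10.9 drew the figures.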

Additional observations from a re-analysis of the deposited data

How the results depend on the processing

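No alternative called any of the 8 genes or their 11 transcripts, and without 1 library the counts stayed at 0. Leaving out each library in turn gave 187 to 309 lower and 35 to 73 higher genes in all, 0 to 2 other SNARE genes (0 without control replicate 3, 2 without ci-Ins2 replicate 2), 0 to 1 other Sec1/Munc18 genes and 2 to 3 assembly factors. Over these fits the log2 fold change ran from −0.032 to 0.056 for Stx1a, from −0.085 to 0.011 for Vamp3 and from −0.015 to 0.069 for Vamp8, so that each changed sign. It ran from −0.15 to −0.020 for Snap25, from −0.12 to −0.048 for Vamp2 and from 0.043 to 0.13 for Stxbp3. For Stx3 it ran from −0.13 to −0.082 and for Stx4 from 0.086 to 0.13. Without scaling it was 0.052 for Stx1a, −0.069 for Stx3, −0.036 for Snap25, −0.048 for Vamp2, 0.010 for Vamp3, 0.072 for Vamp8 and 0.12 for Stxbp3. For Stx4 it rose to 0.15 without scaling (unadjusted p = 0.030 and adjusted p = 0.18 from limma). The fit with the replicate block gave 1428 lower and 729 higher genes, 15.5% of all genes together. In it 3 of 27 other SNARE genes were lower, and 3 of 7 other Sec1/Munc18 genes passed (2 lower and 1 higher). Without a filter 89 genes were higher and the count of other Sec1/Munc18 genes was 0, as it was without scaling, where Scfd2 had an adjusted p of 0.052. At a pseudocount of 5, with the filter at 5, or with the most abundant transcript per gene, 2 other SNARE genes passed. A pseudocount of 0.1 and a fit without the mean-variance trend left all these counts within 1.5 times. The cause of these shifts was not tested. The libraries carry no depth, and the precision at low abundance is known from the spread of 3 libraries a group alone.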

Other observations

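Several genes around the fusion complex host circRNAs in mouse islets. Of the 61 listed partner genes, 30 have 123 circRNAs in the deposited annotation, matched by symbol. The share of all genes that host a circRNA was not computed, so this count is not set apart from other genes. The leading ones, chosen after their values were seen, are circ_00028 of Unc13b with an authors' mean of 519 normalized junction reads and rank 32 of 15925, circ_00043 of Stx6 with 442 and rank 41, and circ_00049 of Unc13b with 394 and rank 46. Unc13b encodes a Munc13 protein and Stx6 a syntaxin of the Golgi and endosomes. In the rat libraries Unc13b had a log2 fold change of −0.04 and Stx6 one of 0.01 after ci-Ins2 knockdown, with adjusted p of 0.82 and 0.95 from limma.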
